A study of Homo sapiens with 6 samples.

Results

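The 40 genes described here encode the machinery that copies DNA in S phase: the proteins that license and fire replication origins, the helicase, the clamp and its loader, the polymerases, the enzymes that supply nucleotides and ligate fragments, the histone chaperones that act at the fork, and the factors that drive entry into S phase. They were taken from a fixed list of symbols, drawn up with earlier results of these data known. Comparisons of this list and the other gene lists with all genes are therefore descriptive. Each of the 40 matched exactly 1 of the 37493 genes in the count tables. Expression was measured by RNA sequencing of total RNA from Eso26 and OE33, 2 established human cell lines of esophageal adenocarcinoma. Each line was transfected with an siRNA against PPARG (siPPARG) or with a non-silencing siRNA (control), with a lipid reagent in both cases, so all 4 libraries come from transfected cells. Each of the 4 groups held 1 library, although the design text speaks of triplicates, and whether a library pools several cultures was not stated there. Eso26 was grown in RPMI and OE33 in DMEM per the labels, so line and medium cannot be told apart. The number of siRNA sequences was not given in the sources used here.

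Before S phase, the origin recognition complex (subunits ORC1 to ORC6), CDC6 and CDT1 load the ring of MCM2 to MCM7 onto origins. CDC45 and the GINS complex then join the ring to form the active helicase. Primase and DNA polymerase alpha lay primers, and polymerases delta and epsilon extend them together with the clamp PCNA, which the RFC complex loads. Most of these genes are transcribed at the G1/S boundary under E2F transcription factors, and E2F1 is itself such a target, whereas genes of mitosis peak later and carry a different pair of promoter elements, the CHR and CCAAT boxes. In tumour cells, summed expression of these genes is commonly read as a sign of proliferation.

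The promoters of the replication genes carried E2F motifs far more often than promoters at large. RefSeq promoter sequences (GRCh38.p14, 300 bases each, from 250 bases before to 50 bases after the start) were found for 36 of the 40 genes. An E2F motif, searched as TTTCCCGC, TTTCGCGC, TTTGCCGC or TTTGGCGC on both strands, was present in 21 of these 36 (58.3%), against 3.99% of 27305 genes with a promoter in the table. The CHR element, searched as TTTGAA or TTCGAA on both strands, was present in 2 of 36 (5.56%), the genes MCM6 and RRM1, against 19.5% of all genes. The CCAAT box, searched as CCAAT on both strands, was present in 22 of 36 (61.1%), against 39.7%. A list of 33 mitosis genes differed in both E2F and CHR, with an E2F motif in 3 of 28 promoters (10.7%), a CHR in 23 (82.1%) and a CCAAT box in 22 (78.6%). Other replication genes, in a second list, had an E2F motif in 13 of 37 promoters (35.1%) and a CHR in 5 (13.5%). The median GC content was 66.0% for the replication promoters, 60.8% for the mitosis promoters and 58.3% for all genes, and the part of base composition in these shares was not tested. These motifs can overlap, and a match is a run of letters, not a measured binding site.

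Shown here are the 250 bases upstream of the start of CDT1 and LIG1, which were among the 6 lowest of the list in OE33 siPPARG, of E2F1, the highest in Eso26 siPPARG, and of MCM6, which has the most matches of the 9 windows that held a match, had a single start in the table and overlapped no other RefSeq gene. Letters in capitals are E2F motif matches; adjoining capitals in MCM6 are overlapping matches on the 2 strands. The CDT1 window is on the plus strand of chr16:88803539-88803788, LIG1 on the minus strand of chr19:48170345-48170594, E2F1 on the minus strand of chr20:33686386-33686635 and MCM6 on the minus strand of chr2:135876444-135876693 (all GRCh38.p14).
CDT1: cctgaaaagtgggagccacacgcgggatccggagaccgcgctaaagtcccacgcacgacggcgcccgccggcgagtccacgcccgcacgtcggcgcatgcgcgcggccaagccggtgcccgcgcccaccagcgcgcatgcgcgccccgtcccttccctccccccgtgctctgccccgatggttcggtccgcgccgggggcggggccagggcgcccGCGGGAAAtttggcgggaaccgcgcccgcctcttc
LIG1: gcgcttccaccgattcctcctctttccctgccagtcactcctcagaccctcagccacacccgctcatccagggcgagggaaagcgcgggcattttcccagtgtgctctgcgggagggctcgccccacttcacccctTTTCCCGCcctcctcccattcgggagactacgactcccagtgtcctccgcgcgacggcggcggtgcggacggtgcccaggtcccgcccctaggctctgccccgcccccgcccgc
E2F1: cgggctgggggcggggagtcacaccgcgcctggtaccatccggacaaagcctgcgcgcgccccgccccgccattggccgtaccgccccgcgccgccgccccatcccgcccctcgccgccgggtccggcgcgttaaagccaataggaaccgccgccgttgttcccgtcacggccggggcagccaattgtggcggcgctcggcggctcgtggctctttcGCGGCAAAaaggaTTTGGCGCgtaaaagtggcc
MCM6: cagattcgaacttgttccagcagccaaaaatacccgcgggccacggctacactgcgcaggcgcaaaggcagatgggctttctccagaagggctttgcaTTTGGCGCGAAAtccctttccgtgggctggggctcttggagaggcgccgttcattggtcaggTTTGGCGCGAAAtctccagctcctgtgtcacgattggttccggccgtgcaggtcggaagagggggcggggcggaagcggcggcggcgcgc
The CDT1 match begins 35 bases before the start and the LIG1 match 114 bases before it, and E2F1 has a pair of matches at 33 and 20 bases. MCM6 has 4 matches, in 2 overlapping pairs that begin at 152 and 148 and at 90 and 86 bases before the start. Members with an E2F motif (21 genes) had a median log2 fold of siPPARG against control of -0.20 in OE33 (from -0.41 to 0.11), and those without (15 genes) one of -0.21 (from -0.44 to 0.05). In Eso26 the medians were 0.10 (from -0.22 to 0.51) and 0.088 (from -0.20 to 0.33), and between the controls -0.076 and 0.050. The ranges overlapped widely, and no test of these differences was made.

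**Figure D1:**
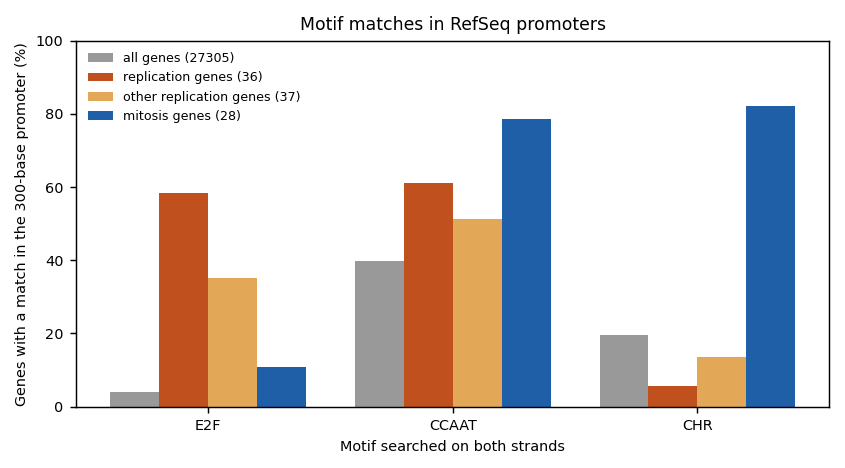
Share of genes (%, vertical axis) whose 300-base RefSeq promoter holds the motif named on the horizontal axis, for all genes, the replication genes, other replication genes and mitosis genes (bars, with the number of genes in the key). The replication genes stand out in E2F matches (58.3%) and the mitosis genes in CHR matches (82.1%).

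The libraries held between 16866996 and 23019840 counts, and the replication genes between 214 and 12404 counts each, so that all 40 passed the filter of 5 CPM (counts scaled to a common library size) in at least 1 library in every comparison. PPARG itself (ENSG00000132170) went from 2156 counts in the OE33 control to 313 in OE33 siPPARG, 0.136 times the control (95% counting interval 0.120 to 0.153). In Eso26 it went from 259 to 201 counts, and the interval of the ratio, 0.698 to 1.02, includes no change. The Eso26 values below therefore refer to the library labelled siPPARG, whose PPARG was not detectably lower. Epithelial markers were abundant in all 4 libraries (6 of 6 detected, summed level 4889 to 9542 CPM), while the 6 immune markers summed to between 0.656 and 5.56 CPM with CD3E at 0 throughout, the 7 fibroblast markers to between 3.86 and 8.20 CPM, and the 4 endothelial markers to between 0.170 and 3.89 CPM with KDR at 0 throughout. With 1 library per group no test is possible within a line: intervals are exact binomial 95% intervals that cover counting error only, and log2 folds are differences of log2 CPM scaled with TMM factors.

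In OE33, the replication genes were mostly lower after siPPARG, each by a small amount. Of the 40 genes, 36 were lower (51.3% of all 10527 kept genes were) and 4 were higher (48.7% of all genes). The median log2 fold was -0.20, against -0.0075 over all kept genes. Counting intervals lay below 1 for 29 genes (72.5%, against 25.8% of all genes), included 1 for 11 and lay above 1 for 0 (against 24.8%). Past 1.2-fold, 11 genes were lower (27.5%, against 13.8%) and 0 higher (against 14.0%), and none was past 1.5-fold in either direction (2.38% and 3.26% of all genes). In bulk RNA, fewer cells in S phase and less of these transcripts per cell cannot be told apart.

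**Figure D2:**
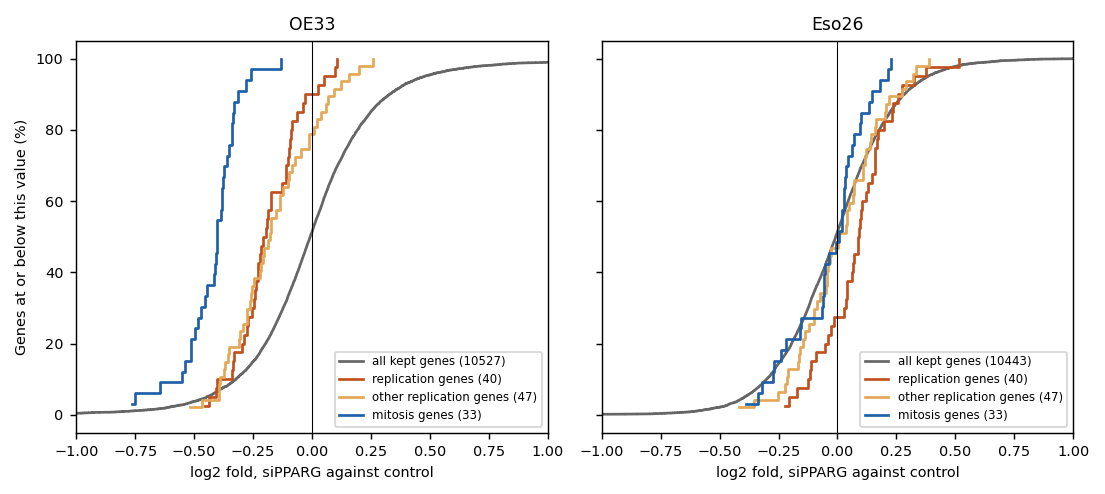
Cumulative share of genes (%, vertical axis) by log2 fold of siPPARG against control (horizontal axis, drawn from -1 to 1) in OE33 (left) and Eso26 (right), for all kept genes and 3 lists (number of genes in the key). In OE33 the replication genes lie left of all genes (median -0.20) and the mitosis genes farther left (median -0.40); in Eso26 the replication genes lie slightly to the right (median 0.089).

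Among the licensing factors, CDT1, the loader that brings the MCM ring to origins, stood at 50.5 CPM in the OE33 control and 38.4 CPM in siPPARG. Its ratio was 0.754 (interval 0.680 to 0.836). ORC1, the ATPase subunit of the origin recognition complex, had a ratio of 0.845 (interval 0.759 to 0.939), ORC6 one of 0.866 (interval 0.790 to 0.95) and CDC6 one of 0.872 (interval 0.818 to 0.931). All 4 licensing genes thus had intervals below 1, with CDT1 the lowest.

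All 6 subunits of the MCM ring were lower in OE33 siPPARG, each with an interval below 1. MCM7 showed the largest difference, from 12404 to 10515 counts (748 to 597 CPM), a ratio of 0.793 (interval 0.772 to 0.813). MCM4 and MCM6 both had a ratio of 0.853, MCM2 one of 0.858 and MCM3 one of 0.887. MCM5 was nearest to no change, at 0.927 (interval 0.869 to 0.989). The subunits that assemble in equal numbers in the ring therefore did not differ by equal ratios, although the log2 folds spanned no more than -0.34 to -0.11.

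The helicase activators were less uniform. GINS4 (SLD5), 1 of the 4 subunits of the GINS complex, had the lowest log2 fold of the 40 genes, -0.45, and went from 638 to 498 counts (ratio 0.730, interval 0.648 to 0.822). CDC45, the partner of GINS in the active helicase, had a ratio of 0.842 (interval 0.756 to 0.938). The intervals of GINS1 (0.860 to 1.01), GINS2 (0.835 to 1.06) and MCM10 (0.844 to 1.01), a factor needed for helicase activation, included 1. GINS3 was on the other side, going from 698 to 800 counts, a ratio of 1.07 (interval 0.967 to 1.19). Of the 4 GINS genes, whose products form 1 complex, GINS4 was thus the lowest of the list in OE33, while the intervals of the other three included 1.

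Polymerase and primase genes gave 4 of the 11 genes past 1.2-fold. PRIM1, the catalytic subunit of primase, went from 713 to 563 counts (43.0 to 32.0 CPM), with a ratio of 0.738 (interval 0.660 to 0.826). POLE2, the second subunit of polymerase epsilon, went from 265 to 214 counts, with a ratio of 0.755 (interval 0.628 to 0.907); it has the fewest counts of the list. POLD1, the catalytic subunit of polymerase delta, stood at 0.824 (interval 0.736 to 0.923) and POLA1, that of polymerase alpha, at 0.828 (interval 0.745 to 0.920). POLA2 stood at 0.861 (interval 0.796 to 0.932). POLE, the catalytic subunit of polymerase epsilon, was level at 1.02 (interval 0.927 to 1.11), unlike its partner POLE2.

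The clamp PCNA was slightly lower, at 0.932 (interval 0.902 to 0.964), from 428 to 402 CPM. Of the loader subunits, RFC5 stood at 0.794 (interval 0.723 to 0.872), RFC4 at 0.818 (interval 0.752 to 0.889), RFC3 at 0.849 and RFC2 at 0.885, all with intervals below 1. The fragment-processing genes differed in size: LIG1, the ligase that seals Okazaki fragments, stood at 0.789 (interval 0.707 to 0.879) and the flap nuclease FEN1 at 0.914 (interval 0.862 to 0.970). DTL, which targets CDT1 for degradation in S phase, stood at 0.815 (interval 0.750 to 0.885).

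Several genes of nucleotide supply and S-phase entry were close to level in OE33. RRM2, the regulated subunit of ribonucleotide reductase, went from 3965 to 4390 counts, a ratio of 1.04 (interval 0.991 to 1.08), while RRM1, the large subunit, stood at 0.876 (interval 0.831 to 0.924). TYMS (thymidylate synthase), E2F1, CCNE2 (cyclin E2) and UHRF1, which recruits the maintenance DNA methyltransferase, had ratios between 0.940 and 0.980 with intervals that included 1. Among the histone-linked genes, the chromatin assembly factor subunits CHAF1B and CHAF1A stood at 0.838 and 0.879, and SLBP, which binds histone mRNA, at 0.937 (interval 0.880 to 0.998). TIPIN, a fork protection factor, had the highest log2 fold of the list, 0.11, with an interval of the ratio from 0.937 to 1.24.

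**Figure D3:**
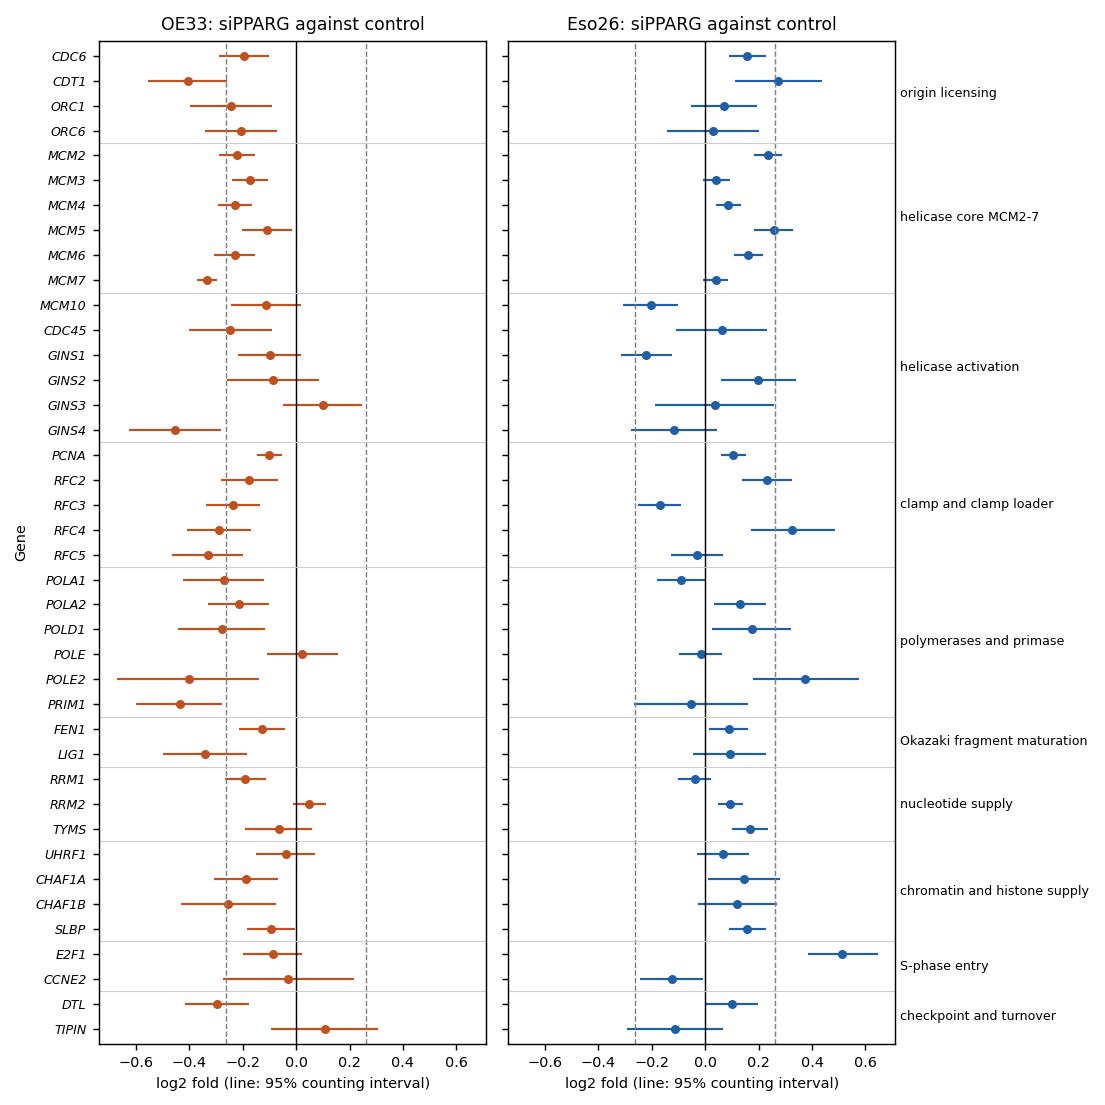
Log2 fold of siPPARG against control for each replication gene (points) with its 95% counting interval (lines), in OE33 (left) and Eso26 (right), grouped by role; dashed lines mark 1.2-fold. In OE33, 11 genes lie beyond the left dashed line and none beyond the right; in Eso26, 4 lie beyond the right dashed line and none beyond the left.

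In Eso26, these genes lay slightly above the control when siPPARG was the label. Of the 40, 29 were higher and 11 lower (48.6% and 51.4% of 10443 kept genes), with a median log2 fold of 0.089 against -0.0073 over all genes. Intervals lay above 1 for 20 genes (50%, against 23.6% of all genes) and below 1 for 4 (10%, against 29.6%). The shift was seen in the bulk of the list rather than in large single values: 4 genes were higher past 1.2-fold (10%, near the 11.5% of all genes) and 0 lower (against 13.2%), and none was past 1.5-fold (1.25% of all genes higher and 1.15% lower). Without a scaling factor 7 genes were past 1.2-fold higher (15.6% of all genes then), and the calls over all genes turned from 1203 higher and 1376 lower to 1631 higher and 990 lower, so the balance of the background rests on the scaling here.

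E2F1 was the highest of the list in Eso26 siPPARG, going from 836 to 1099 counts (36.0 to 51.5 CPM), 1.43-fold (interval 1.30 to 1.57). POLE2 was 1.30-fold higher (interval 1.13 to 1.49), RFC4 1.25-fold (interval 1.13 to 1.40) and CDT1 1.21-fold (interval 1.08 to 1.35). These 4 were the genes past 1.2-fold. In the MCM ring, MCM5 stood at 1.19 (interval 1.13 to 1.26), MCM2 at 1.18 (interval 1.14 to 1.22) and MCM6 at 1.12 (interval 1.08 to 1.16), while MCM7 and MCM3 both stood at 1.03 with intervals that included 1. GINS2 stood at 1.15 (interval 1.04 to 1.27) and TYMS at 1.12 (interval 1.07 to 1.18).

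The 4 genes with intervals below 1 in Eso26 came from 3 roles: helicase activation, clamp loading and S-phase entry. GINS1 went from 2023 to 1596 counts, a ratio of 0.857 (interval 0.803 to 0.916), and MCM10 from 1685 to 1345 counts, a ratio of 0.868 (interval 0.807 to 0.933). RFC3 stood at 0.888 (interval 0.841 to 0.938) and CCNE2 at 0.916 (interval 0.845 to 0.993). In Eso26, then, GINS1 and GINS2 lay on opposite sides of 1, as did RFC3 and RFC4.

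The lines went opposite ways for most of the list. Of the 40 genes, 27 (67.5%) were lower in OE33 siPPARG and higher in Eso26 siPPARG, against 24.5% of the 9588 genes kept in both lines. For 16 of them (40% of the list, against 5.97%) both counting intervals excluded 1, below it in OE33 and above it in Eso26. In the list 0 genes had such intervals the other way round, and the share of all genes was not computed for that. The counts of 27 and 16 largely follow from the shifts within each line and are not a separate result. Of the 40, 36 were lower in OE33 and 29 higher in Eso26, and 29 intervals lay below 1 in OE33 and 20 above 1 in Eso26. POLE2 and CDT1 were past 1.2-fold in both lines, lower in OE33 and higher in Eso26, and so was RFC4. POLE2 stood at 16.7 CPM in the Eso26 control and 21.6 CPM in Eso26 siPPARG, and at 16.0 and 12.1 CPM in the OE33 libraries. CDT1 stood at 25.7 and 31.1 CPM in Eso26 and at 50.5 and 38.4 CPM in OE33, so the lines were closer in siPPARG than in control for CDT1 and further apart for POLE2. Among the 40 genes the size of the OE33 value told little about the size of the Eso26 value, with Pearson's r at -0.12 and Spearman's rho at -0.079, as a description across 40 genes that share the same 4 libraries. No test of a line-by-siRNA difference can be made with these libraries.

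A common effect of siPPARG was looked for in a fit of the 4 libraries with line and treatment, which leaves 1 residual degree of freedom. At an adjusted p under 0.05, 0 of 11382 genes passed edgeR's quasi-likelihood test (0.0%), and 0 of the 40 replication genes. At an unadjusted p under 0.05, edgeR had 523 genes and 0 replication genes, against 569.1 genes expected by chance. DESeq2 called 13 genes and limma-voom 0, with 0 replication genes in either. The lowest unadjusted p among the 40 by edgeR's test was 0.109, for GINS4, with a fitted log2 fold of -0.28 and an adjusted p of 0.942. GINS4 was lower in both lines, but its interval in Eso26 (ratio 0.923, 0.825 to 1.03) included 1. Since opposite directions in the lines count as spread in this fit, these results do not show that siPPARG was without effect in either line.

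Other genes of the same machinery, 48 in a second list of which 47 were kept, were lower in OE33 as well. Of these, 37 lay below 0 and 10 above it (51.3% and 48.7% of all kept genes), with a median of -0.18. Past 1.2-fold, 15 were lower (31.9%, against 13.8% of all genes) and 0 higher (against 14.0%). DONSON, a helicase assembly factor, went from 490 to 365 counts (ratio 0.696, interval 0.606 to 0.799), CCNA2, the S-phase cyclin A2, stood at 0.724 (interval 0.676 to 0.776) and POLD2, a subunit of polymerase delta, at 0.761 (interval 0.718 to 0.806). The highest were RNASEH2C, a ribonuclease H2 subunit, at 1.2 (interval 1.03 to 1.39), CCNE1 (cyclin E1) at 1.15 (interval 1.01 to 1.31) and RPA2, a single-strand binding protein subunit, at 1.12 with an interval that includes 1. In Eso26 this second list was level, with 25 higher, 22 lower (48.6% and 51.4% of all kept genes) and a median of 0.0024. RNASEH2C (1.31, interval 1.13 to 1.52), the histone chaperone gene ASF1B (1.26, interval 1.16 to 1.36) and the thymidine kinase gene TK1 (1.25, interval 1.17 to 1.33) were highest, and TOP1 (topoisomerase I; 0.839, interval 0.811 to 0.867), the nuclease-helicase gene DNA2 (0.783, interval 0.730 to 0.839) and E2F3 (0.749, interval 0.698 to 0.804) lowest. Between the controls the same list ranged from RNASEH2B (log2 fold -2.48), RPA2 (-1.39) and the origin recognition subunit gene ORC2 (-1.31) to the helicase gene RECQL4 (1.09), RNASEH2A (1.19) and MCMBP (1.54), which encodes an MCM-binding protein.

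The mitosis genes lay farther from 0 than the replication genes in OE33. All 33 were lower in siPPARG (51.3% of all kept genes were), and 31 were lower past 1.2-fold (93.9%, against 13.8%). Their median log2 fold was -0.40, against -0.20 for the replication genes, and the highest mitosis gene was at -0.13. In Eso26 their median was 0.0054, with 17 higher and 16 lower (48.6% and 51.4% of all kept genes). Past 1.2-fold, 5 were lower there (15.2%, against 13.2% of all genes) and 0 higher (against 11.5%). Intervals lay below 1 for 11 (33.3%, against 29.6%) and above 1 for 7 (21.2%, against 23.6%). Interferon-response genes stood on the other side in OE33 siPPARG. There all 34 kept genes of a list of 35 were higher (48.7% of all kept genes were). The list's summed level went from 5465 to 12612 CPM in OE33 and from 2079 to 1949 CPM in Eso26. The part of this response in the lower replication values was not tested. For reference genes the medians were 0.048 (OE33) and 0.046 (Eso26). Differences between these lists have no test with 1 library per group.

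The control libraries of the lines differed in both directions across the list. Between the OE33 and Eso26 controls, 19 of the 40 genes were higher in OE33 (50.4% of all genes) and 21 lower (49.6%), with a median log2 fold of -0.076 (0.012 over all 11205 kept genes). Past 2-fold, 6 genes were higher in OE33 (15.0%, against 21.1% of all genes) and 3 lower (7.5%, against 16.6%). Counting intervals lay above 1 for 14 genes (against 45.3% of all genes), below 1 for 17 (44.2%) and included 1 for 9. The summed level of the 40 genes was 4284 CPM in the Eso26 control, 4544 CPM in Eso26 siPPARG, 4470 CPM in the OE33 control and 3949 CPM in OE33 siPPARG. Thus OE33 siPPARG was the lowest and Eso26 siPPARG the highest. MCM7 alone, at 748 CPM in the OE33 control and 310 CPM in the Eso26 control, differed by more than the sums of the controls. The order of the controls in this sum therefore rests on MCM7.

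**Figure D4:**
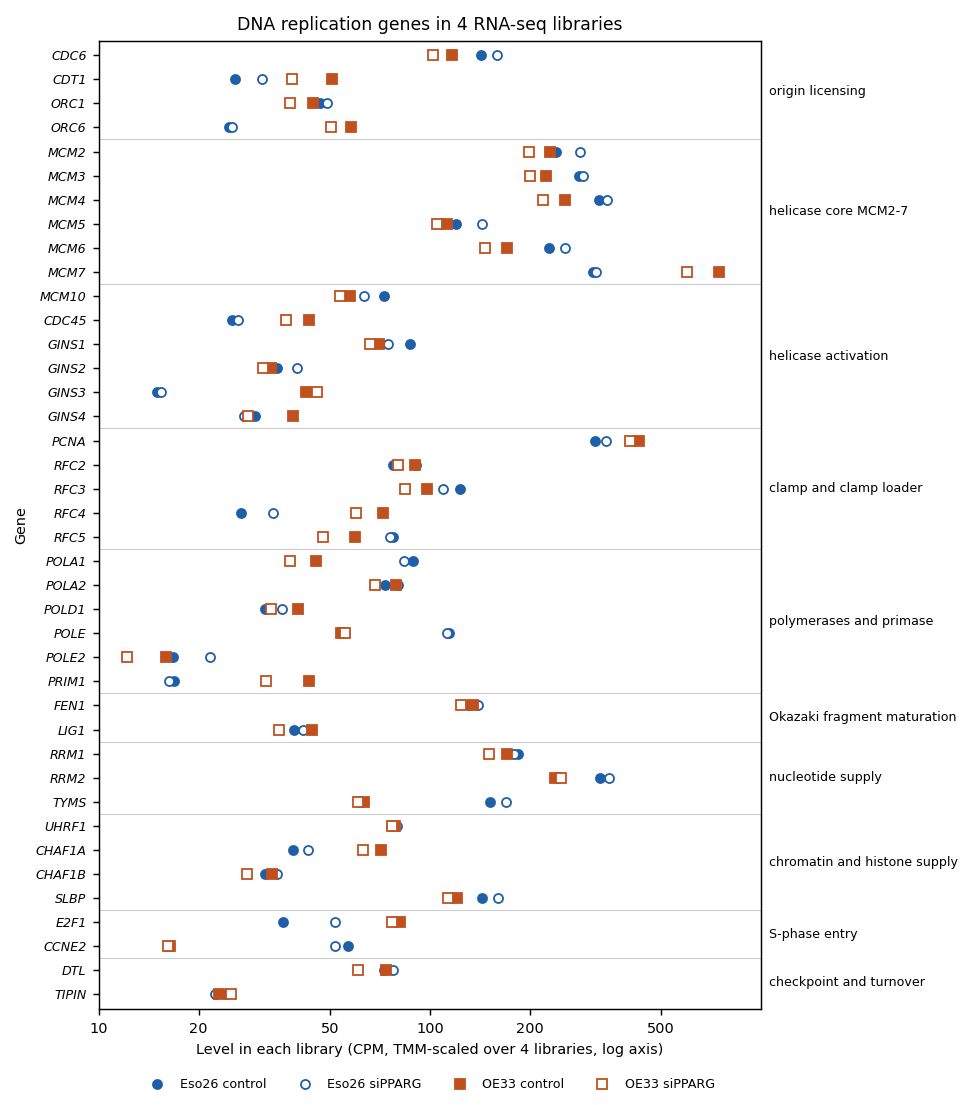
Level of each replication gene (CPM on a log axis, scaled over the 4 libraries) in each library, grouped by role; circles are Eso26, squares OE33, filled symbols controls and open symbols siPPARG. Levels of different genes are not corrected for length; within a gene, MCM7, GINS3 and CCNE2 show the lines far apart.

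MCM7 stood apart from the other subunits of its ring. It was at 748 and 597 CPM in the OE33 control and siPPARG libraries against 310 and 319 CPM in those of Eso26, a ratio of the controls of 2.39 (interval 2.32 to 2.46). The other 5 subunits were all lower in the OE33 control, with ratios of 0.736 for MCM6, 0.785 for MCM4, 0.791 for MCM3, 0.925 for MCM5 and 0.948 for MCM2. MCM7 made up 42.9% of the counts of the 6 genes in the OE33 control (Wilson 95% interval 42.3 to 43.5) and 40.6% in OE33 siPPARG (interval 40.04 to 41.23), against 20.6% (interval 20.2 to 21.0) and 19.5% (interval 19.1 to 19.9) in Eso26. Both OE33 libraries were far above both Eso26 libraries in this share, whichever siRNA was used. MCM7 overlaps AP4M1 in the annotation, and the treatment of shared reads and strand was not stated for these counts.

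In the GINS and RFC complexes, subunits also differed by unequal ratios, some higher and some lower in OE33. GINS3 was at 42.1 and 45.4 CPM in the OE33 control and siPPARG libraries against 15.0 and 15.4 CPM in Eso26, a ratio of the controls of 2.78 (interval 2.44 to 3.17), while GINS4 stood at 1.28 (interval 1.15 to 1.43), GINS2 at 0.949 and GINS1 at 0.796. RFC4 was at 72.4 and 59.6 CPM in OE33 against 26.8 and 33.6 CPM in Eso26, a ratio of 2.67 (interval 2.42 to 2.95), while RFC2 stood at 1.15 (interval 1.08 to 1.24), RFC3 at 0.788 and RFC5 at 0.759. PRIM1 had a ratio of 2.53 (interval 2.23 to 2.87), ORC6 one of 2.32 (interval 2.09 to 2.57) and E2F1 one of 2.23 (interval 2.04 to 2.43). For GINS3, RFC4, PRIM1, ORC6 and E2F1, both OE33 libraries were above both Eso26 libraries.

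The 3 genes past 2-fold lower in OE33 were CCNE2, which encodes a cyclin of S-phase entry, TYMS and POLE. CCNE2 was at 16.3 and 16.1 CPM in the OE33 control and siPPARG libraries against 56.5 and 51.8 CPM in Eso26, a ratio of the controls of 0.286 (interval 0.250 to 0.326). TYMS was at 63.1 and 60.7 CPM against 151 and 170 CPM, a ratio of 0.413 (interval 0.385 to 0.443). POLE had a ratio of 0.467 (interval 0.432 to 0.504) and POLA1 one of 0.506 (interval 0.465 to 0.551), so both catalytic subunits were near 2-fold lower, whereas their partners POLE2 and POLA2 had intervals that included 1. RRM2 stood at 0.725 (interval 0.698 to 0.754). TYMS overlaps ENOSF1 and CCNE2 overlaps INTS8 and NDUFAF6 in the annotation, so shared reads could not be assigned with certainty. In the list, 8 genes overlap a protein-coding gene, and the same limit applies to each in every comparison. The others are MCM7 (AP4M1), GINS2 (GSE1), ORC1 (PRPF38A), RFC5 (WSB2), UHRF1 (ARRDC5) and CHAF1A (UBXN6).

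**Figure D5:**
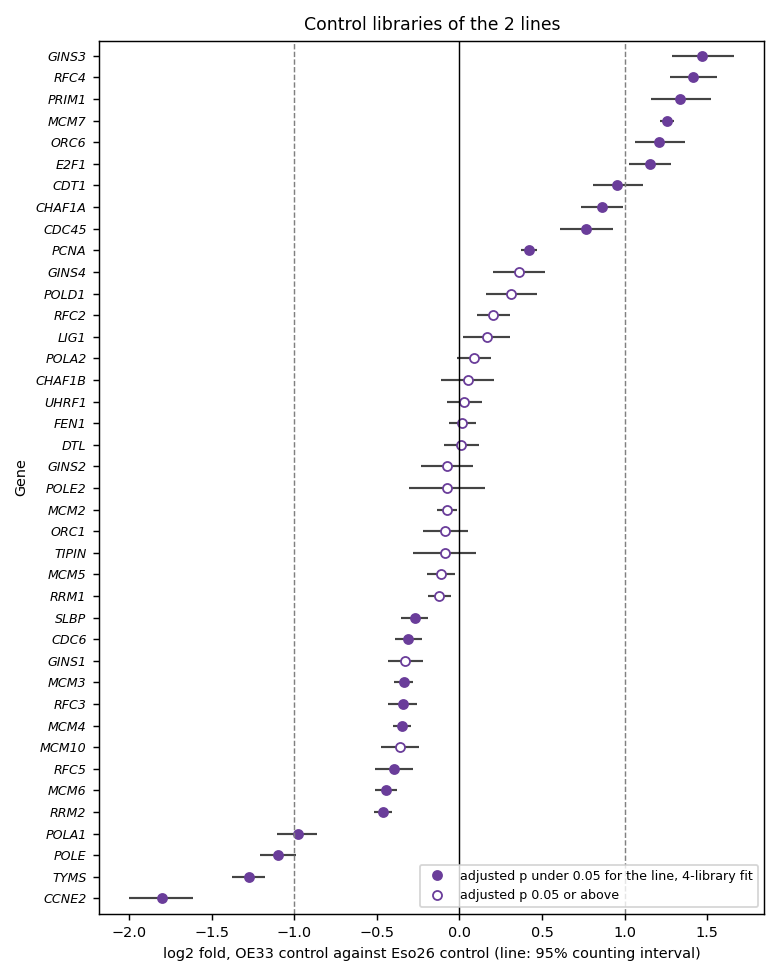
Log2 fold of the OE33 control against the Eso26 control for each replication gene, ordered by value (points) with its 95% counting interval (lines); dashed lines mark 2-fold, and filled points had an adjusted p under 0.05 for the line in the fit of 4 libraries. Of the 40 genes, 6 lie beyond the right dashed line and 3 beyond the left.

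In the fit of 4 libraries, which treats the 2 libraries of a line as its samples, 22 of the 40 replication genes passed edgeR's quasi-likelihood test at an adjusted p under 0.05 (55%, against 71.3% of all 11382 genes). Of these, 10 were higher in OE33 (37.2% of all genes were called higher) and 12 lower (34.1%). The libraries of the lines did not overlap for 30 of the 40 genes, 10 higher (44.8% of all genes) and 20 lower (42.5%) in OE33, against 87.2% of all genes in either direction. By the same fit the lowest adjusted p was that of CCNE2 (1.76e-04, log2 fold -1.74), and GINS3 (2.76e-04, 1.53), TYMS (2.94e-04, -1.37) and MCM7 (9.70e-04, 1.09) were also called, each with both OE33 libraries on 1 side. The 40 genes were therefore called less often than genes at large, and no test of that difference was made.

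For the 9 genes past 2-fold between the controls, the neighbouring genes on the chromosome were also looked at, up to 5 kept genes on each side in RefSeq order, a comparison chosen after the values were seen. All 10 neighbours of MCM7 on chromosome 7 were higher in OE33 (median log2 fold 1.03), as were all 10 of GINS3 on chromosome 16 (median 1.47) and 8 of 10 of ORC6, also on chromosome 16 (median 1.34), and of RFC4 on chromosome 3 (median 1.09). All 7 neighbours of TYMS on chromosome 18 were lower (median -1.14), as were 9 of 10 of CCNE2 on chromosome 8 (median -0.87) and of POLE on chromosome 12 (median -0.64). For PRIM1 8 of 10 neighbours were higher and for E2F1 7 of 10, with medians nearer to level (0.26 and 0.21). Over these 9 genes a mean of 87.8% of neighbours lay on the gene's own side, against 64.5% over the 4091 genes past 2-fold that could be placed. All neighbours lay on the gene's own side for 3 of the 9, against 10.1% of those 4091 genes. These differences were not tested. Members not past 2-fold went either way: all 10 neighbours of GINS4 lay on its side, and 0 of 10 of RRM1. The neighbours counted include genes that overlap the member and may share reads with it: AP4M1 for MCM7, ENOSF1 for TYMS, and INTS8 and NDUFAF6 for CCNE2.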

How the data were processed

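The authors deposited raw counts per gene (whole numbers, not normalised) in 1 table per line, per the file headers. The submitters' processing notes name Trim Galore, STAR, Bowtie, Picard, MACS2 and hg19 without roles; the counter, strand setting and annotation were not given in the sources used here. Of 37533 entries in a table, 40 shared an Ensembl identifier with another and were added to it, leaving 37493, of which 37402 are in the symbol table. No hg19 annotation was used, so the PPARG peak lists were not placed at these genes, and the planned look at binding was not run.

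Within each comparison, TMM factors from edgeR 4.0.16 (under R 4.3.3) set the scale, and log2 folds took a prior count of 2, for genes that reached 5 CPM in either library. CPM printed per library use factors over all 4. Size thresholds were 1.2-fold for siPPARG and 2-fold between controls. Intervals are exact conditional binomial (95%, scipy 1.17.1). The 4-library fit used edgeR's quasi-likelihood test with Benjamini-Hochberg adjustment; DESeq2 1.42.0 (Wald) and limma 3.58.1 (voom) were alternatives. Its p-values rest on 1 residual degree of freedom. Counts were also simulated for 11382 genes. The 4-library fit recovered 96% of 100 genes changed 2-fold by siPPARG in both lines and 100% of 100 changed 4-fold. It made 9 false calls (12 for the line effect), and no change under 2-fold was simulated. In that simulation 200 genes differed between the lines, against 8117 called for the line in these libraries. Recovery where the lines differ this widely, or go opposite ways under siPPARG, was not tested. Alternatives covered scaling, filter, prior count, threshold and test; interval counts under other scalings were added after seeing the data. Named genes were the members, by role, and the 3 highest and 3 lowest of the other replication genes in each comparison. Members and lists were chosen with earlier results of these data known.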

Additional observations from a re-analysis of the deposited data

Results flagged for a closer look

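For 27 of the 40 replication genes (67.5%) the siPPARG values were lower in OE33 and higher in Eso26, against 24.5% of the genes kept in both lines. Another 9 were lower in both, 2 higher in both, and 2 higher in OE33 and lower in Eso26. The shares of all genes in these other classes were not computed. The count of 27 largely follows from the shift of the list within each line. Each line has 1 library per condition, and the difference was not tested. The median log2 fold was -0.20 in OE33 and 0.089 in Eso26, a difference of -0.29. For 16 genes (40%, against 5.97% of the genes kept in both lines) the counting intervals lay below 1 in OE33 and above 1 in Eso26. Among these 16, the OE33 value minus the Eso26 value, on the log2 scale, was widest for the polymerase epsilon subunit gene POLE2 (-0.78), the licensing gene CDT1 (-0.68) and the clamp loader gene RFC4 (-0.62). In the MCM ring the difference was -0.46 for MCM2, -0.39 for MCM6, -0.37 for MCM5 and -0.31 for MCM4. It was -0.45 for POLD1, -0.34 for POLA2, -0.41 for RFC2, -0.35 for CDC6 and -0.39 for DTL. CHAF1A differed by -0.33, and the smallest of these 16 were -0.25 for SLBP, -0.22 for FEN1 and -0.21 for PCNA. PPARG mRNA was lower in OE33 siPPARG (ratio 0.136) and not detectably lower in Eso26 siPPARG (ratio 0.843), and the part of this in the difference was not tested.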

How the results depend on the processing

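The medians of the replication genes kept their sign in all 3 comparisons under each scaling, filter and prior count tried, from -0.21 to -0.19 in OE33, 0.070 to 0.13 in Eso26 and -0.097 to -0.076 between the controls. At a threshold of 1.5-fold, 0 genes were lower in OE33 siPPARG (11 at 1.2-fold) and 0 higher in Eso26 siPPARG (4 at 1.2-fold). Without a scaling factor 7 were past 1.2-fold higher in Eso26. With DESeq2 size factors 1 gene, RRM2, had an interval above 1 in OE33 (0 with TMM), and 17 rather than 20 did in Eso26. The sign of RFC5, POLE and RRM1 in Eso26 and of FEN1 and DTL between the controls turned without a scaling factor, all of them near 0. DESeq2 called 13 genes for a common effect of siPPARG where edgeR called 0; the cause was not tested. The line difference called between 21 and 23 of the 40 genes over all tools, scalings and filters tried. DESeq2 called 21 (52.5%), beside 7571 of all 11382 genes. Without a scaling factor edgeR called 23 (57.5%), beside 8267 of all 11387 genes. In the main setting 55% of the list was called, against 71.3% of all genes. Replicates could not be paired within a line, because each group holds 1 library. The fit of 4 libraries takes the line as a block, which pairs siPPARG with control by line. No library could be left out of it. The counts bound each ratio to within its interval, which for the thinnest gene, POLE2, ran from 0.628 to 0.907 in OE33; the spread between cultures is unknown.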
